A study of Schizosaccharomyces pombe with 6 samples.

Results

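The peak list of *SUMO-KallR* cells that express CFP-Cnp1 was compared with the peak list of an untagged strain across all 3 chromosomes of fission yeast. All peaks of both lists were taken, 1615 in *SUMO-KallR*, against 961 in the untagged strain, together 2576 of the 2635 peaks in the series. The question was which features of the *SUMO-KallR* list recur in a strain that has no CFP-Cnp1, and which do not.

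Cnp1 is the fission yeast CENP-A, the histone H3 variant that takes the place of H3 in centromeric nucleosomes and on which the kinetochore is built. A fission yeast centromere has a core (*cnt*) between inverted inner repeats (*imr*), where Cnp1 normally sits. It also has outer *dg* and *dh* repeats (*otr*), which are normally packed into heterochromatin. SUMO is a small protein that is joined to lysines of other proteins and, through its own lysines, to further SUMO molecules, which makes chains.

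In *SUMO-KallR* cells the lysines of SUMO, encoded by *pmt3*, are replaced by arginines, so that chains cannot form, and Cnp1 carries a CFP tag. The untagged strain has neither change. Under the strain numbers that match the headers of the peak lists, the study's strain list gives *ade6-704 leu1-32 ura4-D18* for both, with CFP-*cnp1*:Kan and *pmt3*-KallR in addition for *SUMO-KallR*. Cells grew in rich medium, were mixed with budding yeast cells as a calibrator, and were precipitated with an anti-GFP antibody, which also binds CFP. The untagged strain therefore shows what is recovered without the target. Each strain gave 1 ChIP library, so no difference between them can be set against a replicate error, and all comparisons are descriptions of these libraries. Intervals given below cover only the number of peaks counted. A WT CFP-*cnp1* strain completes the series. Its list holds 59 peaks, 35 of which touch a centromere, and covers 1.12% of the nuclear genome.

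Each peak has a start, an end, 1 summit and a score, the height the authors' peak caller gave it. Both lists tile the genome. Peaks lay over 92.8% of all bases in *SUMO-KallR* and over 95.2% in the untagged strain, so mere overlap says little, and edges, gaps, summits and scores were compared instead. A peak was called centromeric if it touched the interval from the outer edge of one *otr* to the outer edge of the other. Of the rest, peaks with a summit within 100 kb of a chromosome end were called end peaks and all others arm peaks. This gave 1433 arm, 168 end and 14 centromeric peaks in *SUMO-KallR*, against 812 arm, 109 end and 40 centromeric peaks in the untagged strain. The *SUMO-KallR* list fits the CFP-Cnp1 part of its label, since its peaks covered 100% of *cnt* on each of the 3 chromosomes, while untagged peaks covered 0% of it. This does not bear on *pmt3*, since the WT CFP-*cnp1* list also has its highest score of each chromosome at the centromere.

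The sequences below show the places on which the comparison turns, from the RefSeq genome ASM294v3, plus strand. In the 3 to begin with, capitals run from one list's summit to the other's. They lie at III:962908-963017 in *gsf2*, at II:670850-670951 in *pfl3*, and at III:230212-230319 between genes, 203 bp from the non-coding RNA gene SPNCRNA.6754 at the *SUMO-KallR* summit.
gsf2: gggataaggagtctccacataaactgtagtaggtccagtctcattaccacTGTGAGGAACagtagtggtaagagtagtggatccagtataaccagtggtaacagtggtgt
pfl3: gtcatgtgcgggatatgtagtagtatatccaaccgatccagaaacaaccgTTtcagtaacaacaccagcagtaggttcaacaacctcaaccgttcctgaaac
SPNCRNA.6754: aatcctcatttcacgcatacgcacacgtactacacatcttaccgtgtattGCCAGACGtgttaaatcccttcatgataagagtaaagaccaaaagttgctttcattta
In the next 2, capitals mark the 11 bases around the highest *SUMO-KallR* summit of centromeres II and III, at II:1619740-1619840 and III:1094043-1094143. Each of these 101-base windows occurs 2 times in the genome, since the *imr* is an inverted repeat. Reads were 150 bases long and paired, so they reach past such a window. Of 150-base sequences, 14.2% occur once in the left *imr* of chromosome II and 2.60% in that of III. The list headers speak of reads uniquely mapped to *S. pombe*. It is not stated whether this sets aside budding yeast reads or also reads with several places. In the right *imr* of chromosome III, 0% of 150-base sequences occur once. Peaks covered 100% of it in *SUMO-KallR*, against 41.5% in the untagged strain.
centromere II imr: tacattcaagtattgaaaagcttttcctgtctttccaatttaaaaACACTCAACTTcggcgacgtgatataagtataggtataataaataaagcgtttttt
centromere III imr: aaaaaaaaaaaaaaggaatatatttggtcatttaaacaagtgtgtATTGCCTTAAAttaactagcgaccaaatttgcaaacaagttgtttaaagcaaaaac
The last lies in the left *otr* of chromosome III, III:1079553-1079655, where the summits of both lists are again close. Its capitals run between them.
centromere III otr: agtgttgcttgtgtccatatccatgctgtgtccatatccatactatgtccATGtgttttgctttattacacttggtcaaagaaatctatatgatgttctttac

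Edges of *SUMO-KallR* peaks recurred in the untagged strain. Starts were compared with starts and ends with ends. Of 3230 *SUMO-KallR* edges, 719 lay within 100 bp of an untagged edge of the same side, which is 22.3% (exact 95% binomial interval 20.8 to 23.7%). Of all bases of the genome, 1.54% lie that close to such an edge. Within 10 bp there were 97 edges, or 3.00%, against 0.161% of bases, and 5 edges fell on the same base. Arms, ends and centromeres had similar shares, 21.9% of 2866 arm edges, 24.7% of 336 end edges and 32.1% of 28 centromeric edges. The share also changed little with score, from 20.7 to 23.2% over the score quartiles of arm peaks. It was 24.1% for arm peaks of up to 1000 bp and 20.3% for those over 10 kb. Seen from the untagged list, which has fewer edges, the same 719 edges are 37.4% of 1922.

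Both edges of a peak coincided less often. For each peak the partner with the most overlap was found, and 798 pairs chose each other, 689 on arms, 95 at ends and 14 at centromeres. These are called mutual pairs. In 98 of them, or 12.3%, both edges lay within 100 bp. The peaks of these 98 pairs were narrow, with a median width of 2478 bp in *SUMO-KallR*, against 2575 bp in the untagged strain. In 3 pairs both edges lay within 10 bp. The highest was the peak over *pfl3*, which encodes a DIPSY-family cell wall glycoprotein. It ran from 669829 to 673724 on chromosome II with a score of 518 in *SUMO-KallR*, and from 669820 to 673723 with a score of 359 in the untagged strain, with the summits 1 bp apart. The second lay inside the retrotransposon Tf2-10, from 1965320 to 1965839 with a score of 202 in *SUMO-KallR*, and from 1965319 to 1965841 with a score of 286 in the untagged strain. The third, on chromosome I between genes, scored 27 in *SUMO-KallR*, against 49 in the untagged strain, which is percentile 0.805 of the *SUMO-KallR* list and percentile 7.39 of the untagged list.

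**Figure D1:**
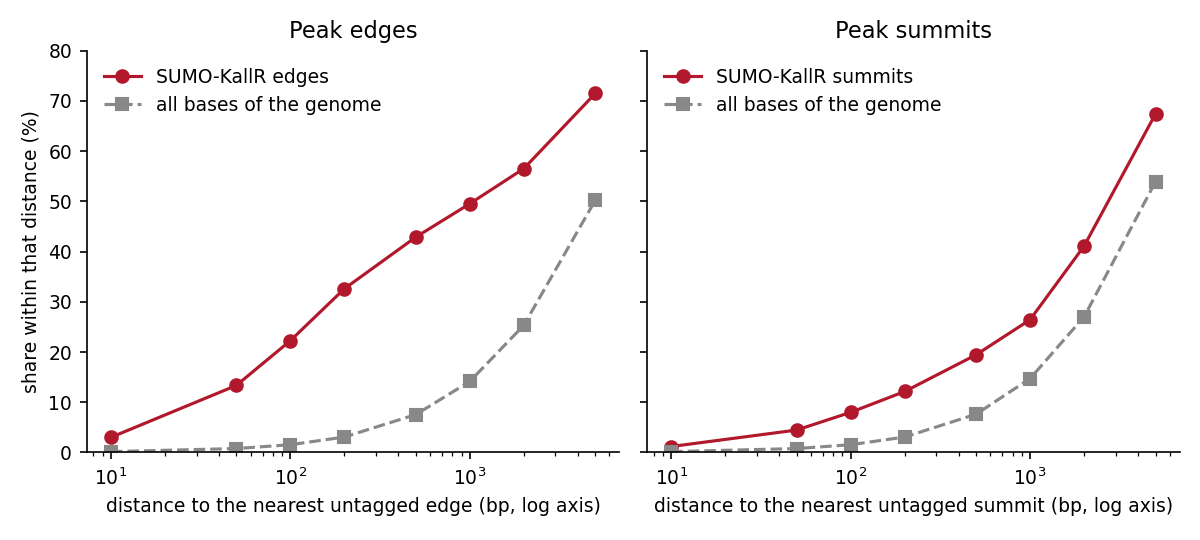
Share of *SUMO-KallR* peak edges (left panel) and summits (right panel) in percent that lie within a given distance in bp (log axis) of the nearest untagged edge of the same side or the nearest untagged summit, as red circles. Grey squares give the share of all bases of the genome that lie within that distance; at 100 bp the edges stand at 22.3% and the summits at 7.99%, against 1.54% of bases.

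Arm peaks of the untagged strain were broken into several *SUMO-KallR* peaks. On the arms the median width was 5115 bp in *SUMO-KallR*, against 9020 bp in the untagged strain. Over all regions, 1028 of the 1615 *SUMO-KallR* peaks (63.7%) lay wholly inside 1 untagged peak, and 150 of the 961 untagged peaks (15.6%) lay wholly inside 1 *SUMO-KallR* peak. Of the 961 untagged peaks, 417 (43.4%) were overlapped by at least 2 *SUMO-KallR* peaks, 52 by at least 5, and 43 by none. Of the *SUMO-KallR* peaks, 160 (9.91%) were overlapped by at least 2 untagged peaks and 20 by none. By chromosome, 45.7% of untagged peaks were split on I, 46.8% on II and 34.2% on III. The share went with width. It was 4.93% in the quartile of narrowest arm peaks, up to 2731 bp, and 86.7% in the widest, over 19217 bp. The number of pieces and the width correlated with a Spearman rho of 0.72 over 812 untagged arm peaks of 1 library.

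The widest untagged peak, 156 kb on chromosome I from 1667292 to 1823467, had a score of 213 and held 17 *SUMO-KallR* pieces, 1602 to 28204 bp wide with scores of 80 to 388. The 16 stretches between the pieces were 153 to 682 bp long and 22.1 to 46.4% G+C. One of the 17 pieces covers *swi6*, the gene of the heterochromatin protein HP1. Another 6 untagged peaks held 9 pieces each.

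At centromeres the relation was the other way round. None of the 40 centromeric untagged peaks was split, and 10 of the 14 centromeric *SUMO-KallR* peaks lay over at least 2 untagged peaks, against 129 of 1433 arm *SUMO-KallR* peaks. The 4 *SUMO-KallR* peaks that lay over 5 or more untagged peaks were all centromeric. The *SUMO-KallR* peak over the core of centromere III was 24.6 kb wide and took in 6 untagged peaks, and the one over the core of centromere I was 29.4 kb wide and took in 5. To the right of the core of centromere III, a *SUMO-KallR* peak of 69.3 kb reached from the *otr* 61926 bp into the arm and took in 7.

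**Figure D2:**
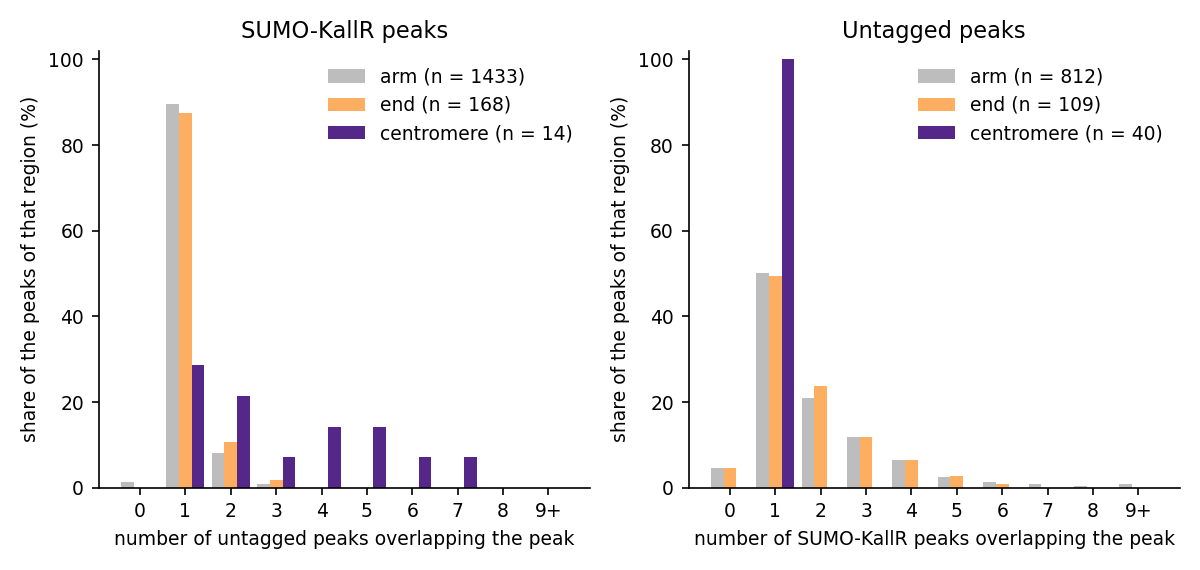
Share of peaks, in percent of the peaks of each region, by the number of peaks of the other list that overlap them, for *SUMO-KallR* peaks (left panel) and untagged peaks (right panel), on arms (grey), within 100 kb of chromosome ends (orange) and at centromeres (purple). Untagged arm and end peaks extend to many pieces, all 40 centromeric untagged peaks lie under 1 *SUMO-KallR* peak each, and centromeric *SUMO-KallR* peaks extend up to 7.

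The stretches without a peak, called gaps, showed where arm peaks ended. A gap was never under 151 bp in either list, so a shorter fall of signal ends no peak. On the arms *SUMO-KallR* had 1435 gaps and the untagged strain 814. Of the *SUMO-KallR* gaps, 784 lay wholly under an untagged peak, 564 partly, and 87 under none. Of the untagged gaps, 146 lay wholly under a *SUMO-KallR* peak, 367 partly, and 301 under none.

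The *SUMO-KallR* gaps that split untagged peaks were AT-rich and lay mostly outside coding sequence. Their median G+C content was 30.3% (quartiles 26.8 and 34.1%), with a median length of 258.5 bp. Windows of 201 bases on the arms had a median of 36.3% G+C. The 146 untagged gaps under a *SUMO-KallR* peak had a median of 34.7% and a median length of 228 bp. Of the gaps that no peak of the other list touched, the 301 untagged gaps under no *SUMO-KallR* peak had a median of 30.0% G+C, and the 87 *SUMO-KallR* gaps under no untagged peak a median of 36.7%. Of the 784 gaps, 12.9% had their midpoint in coding sequence, which makes up 58.9% of arm bases. By contrast 35.7% had it between annotated genes, where 8.59% of arm bases lie, and 28.7% in a gene for a non-coding RNA, against 11.3% of arm bases. Long terminal repeats of retrotransposons held the midpoint of 4.46% of these gaps and are 0.537% of arm bases. The share of 150-base sequences that occur once in the genome had a median of 100% in these gaps and was under 50% in only 2 of the 784. Untagged gaps also lay mostly outside coding sequence. Of the 146 under a *SUMO-KallR* peak, 15.1% had their midpoint in coding sequence and 26.7% between genes. Another 38.4% had it in a gene for a non-coding RNA and 5.48% in a long terminal repeat. Of all 814 untagged gaps, 6.39% had it in coding sequence.

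In both lists the gaps lay between divergent and between tandem genes more often than arm bases do. Of the 784 *SUMO-KallR* gaps, 40.1% had their midpoint between 2 coding genes that point away from each other, and 7.27% between genes that point towards each other, against 14.4 and 5.62% of arm bases. Between tandem genes, which point the same way, lay 38.9% of the 784 midpoints, against 17.8% of arm bases. For the 146 untagged gaps under a *SUMO-KallR* peak the shares were 47.9% between divergent, 4.11% between convergent and 32.2% between tandem genes. Stretches between divergent genes hold 2 promoters, and those between tandem genes 1.

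Summits showed the opposite composition. Of 1433 *SUMO-KallR* arm summits, 75.7% lay in coding sequence and 3.00% between genes, and of 812 untagged arm summits, 62.7% and 6.28% did. The median G+C content of the 201 bases around the summit was 39.3% in *SUMO-KallR*, against 37.8% in the untagged strain. The lists thus differ from arm bases in the same direction, with *SUMO-KallR* summits further from the arm value of 58.9% in coding sequence than untagged ones. Coding sequence and G+C content thus moved together with the place of gaps and summits, and the part of base composition was not tested.

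**Figure D3:**
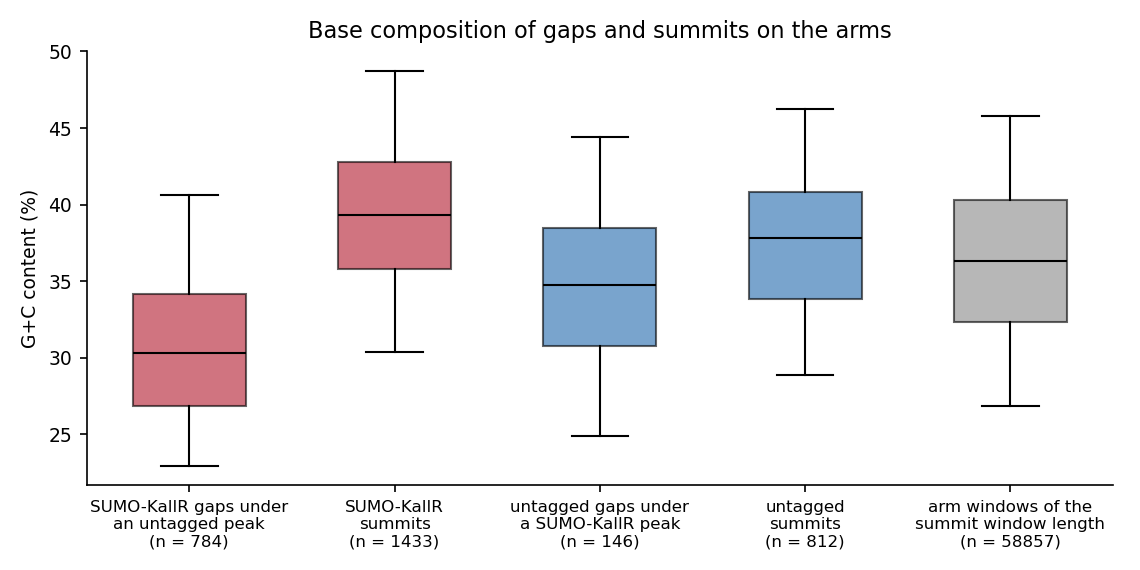
G+C content in percent of *SUMO-KallR* gaps under an untagged peak and of 201 bases around *SUMO-KallR* arm summits (red), of untagged gaps under a *SUMO-KallR* peak and of 201 bases around untagged arm summits (blue), and of 201-base windows along the arms (grey). Boxes show median and quartiles and whiskers the 5th and 95th percentile; *SUMO-KallR* gaps have the lowest median (30.3%) and *SUMO-KallR* summits the highest (39.3%).

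Summits coincided less than edges. The median distance from a *SUMO-KallR* summit to the nearest untagged summit was 2691 bp (interval of the median 2546 to 2989 bp). It was 3090 bp on arms, 1030.5 bp at ends and 661.5 bp at centromeres. Within 100 bp lay 129 of 1615 summits, or 7.99% (interval 6.71 to 9.42%), while 1.54% of bases lie that close to an untagged summit. The share was 6.77% on arms, 17.3% at ends and 21.4% at centromeres, where it stands for 3 of 14. On the arms the share was largest in low and narrow peaks. It was 11.7% in the lowest score quartile and 3.91 to 5.87% in the other 3, and 16.4% for peaks of up to 1000 bp against 2.67% for those over 10 kb. A summit is 1 point per peak, so in a wide peak it has more room to lie elsewhere.

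Of the 97 *SUMO-KallR* arm summits that coincided within 100 bp, 57.7% lay in coding sequence and 23.7% in a gene for a non-coding RNA. Of the 1095 that lay over 1000 bp away from any untagged summit, 79.5 and 6.94% did. Sequence that occurs more than once in the genome held 8 of the 97 summits, or 8.25%, and 21 of the 1095, or 1.92%.

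The highest arm peak was the same in both lists. It lay over *gsf2*, the gene of the flocculin of fission yeast, with a score of 1230 in *SUMO-KallR*, against 1392 in the untagged strain. These are 7.69 times the median arm score in either list. The *SUMO-KallR* peak ran from 962728 to 965156 on chromosome III and the untagged one from 962063 to 965085, with summits 9 bp apart in the sequence shown first. That window of 110 bases occurs 3 times in the genome, as does the *pfl3* window.

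Ranks of arm scores agreed more closely in pairs whose summits were close, but much of this went with peak width. Scores depend on the depth of a ChIP and its input and were ranked within each list. Of the 784 mutual pairs outside centromeres, 73.3% (interval 70.1 to 76.4%) fell on the same side of the median score of the paired peaks of their list. Spearman's rho of the scores was 0.69 over these 784 pairs and 0.62 over the 689 arm pairs. It was 0.85 over the 72 arm pairs with summits up to 100 bp apart, and was 0.34 over the 359 with summits more than 2000 bp apart. By chromosome it was 0.62, 0.60 and 0.63 on the arms of I, II and III. Score also went with width. Widths of paired arm peaks correlated with a rho of 0.91. Within a list the score correlated with the width with a rho of 0.60 in *SUMO-KallR*, against 0.66 in the untagged strain. After the rank of width was taken out of both scores, a rho of 0.34 remained on the arms and 0.88 at the ends. By the distance between the summits, what remained on the arms was 0.48 up to 100 bp, 0.29 from there to 500 bp, 0.36 up to 2000 bp and 0.23 beyond. In the closest of these pairs score and width correlated with a rho of 0.76 in either list, and in the farthest with 0.41 in *SUMO-KallR*, against 0.46 in the untagged strain. Pairs share their genomic position, its base composition and mappability, and neighbouring pairs are not independent, so no *p*-value is given.

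To set peaks of different lists side by side, each score was also divided by the median arm score of its own list, 160 in *SUMO-KallR*, against 181 in the untagged strain. This multiple is a multiple of a score, not of bound DNA. On the arms the 2 multiples were close. The log2 ratio of *SUMO-KallR* over untagged had a median of 0.10 (quartiles −0.12 and 0.29), and ran from −1.81 to 1.92. The *SUMO-KallR* multiple was over 2 times the untagged one in 16 of 689 arm pairs (2.32%), and the untagged multiple was over 2 times the *SUMO-KallR* one in 9 (1.31%).

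Centromeric pairs stood apart on this scale and not by percentile. In all 14 the *SUMO-KallR* multiple was over 2 times the untagged one, with log2 ratios of 1.27 to 8.32 and a median of 2.29. Some partners lay wholly in the arm. That of the leftmost peak of centromere II had its summit in *hmo1*, 25661 bp away (log2 ratio 5.09). That of the rightmost peak of centromere III had its summit 48870 bp away (log2 ratio 3.35). With the highest untagged peak under each *SUMO-KallR* peak as the partner, the ratios ran from 0.99 to 8.32 with a median of 1.74. The percentile of a score within its list moved by a median of 3.14 points for the 14 centromeric pairs and by 3.72 points for the 784 other pairs. The 14 centromeric *SUMO-KallR* peaks lay at percentile 98.3 or above and the 40 untagged ones had a median percentile of 96.1, so percentiles had little room to move.

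**Figure D4:**
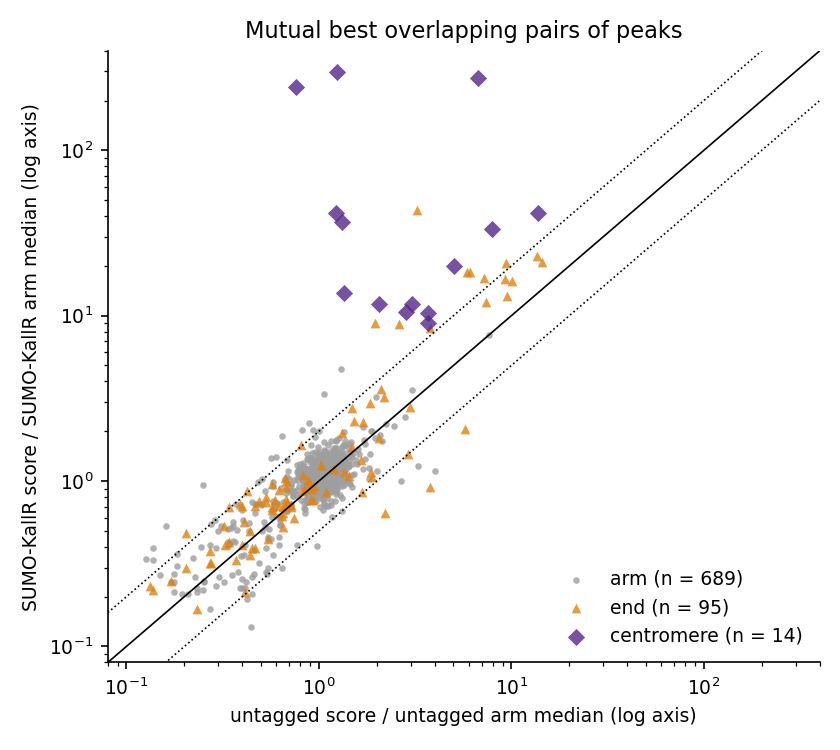
Score of the *SUMO-KallR* peak (vertical axis) and of the untagged peak (horizontal axis) in each mutual pair, each divided by the median arm score of its own list, on log axes, for arm (grey), end (orange) and centromeric (purple) pairs. The solid line marks equal multiples and dotted lines a 2-fold ratio; the 14 centromeric pairs lie above the upper dotted line, and 16 of 689 arm pairs lie above it and 9 below the lower one.

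The highest scores of the *SUMO-KallR* list lay over the central domains. On chromosome III the peak from 1083629 to 1108275 had a score of 47891, which is 299 times the arm median. On chromosome I the peak from 3756470 to 3785857 scored 43712, or 273 times, and on chromosome II the peak from 1616732 to 1629590 scored 38899, or 243 times. Untagged peaks under the first scored 136 to 1984, under the second 115 to 1214, and under that of chromosome II the single one scored 138. Those untagged peaks lay at the sides, in *imr* and *otr*, and left *cnt* free. Centromeric scores of this size are not particular to *SUMO-KallR*. In the WT CFP-*cnp1* list they reached 40987 on chromosome III, 41393 on I and 37090 on II.

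In the other centromeric peaks both lists stood mostly above the arm median, and *SUMO-KallR* stood higher. The 11 other centromeric *SUMO-KallR* peaks scored 1435 to 6702, or 8.97 to 41.9 times the arm median. The 40 untagged peaks scored 115 to 2518, or 0.635 to 13.9 times, with a median of 3.20 times. At least 1 WT CFP-*cnp1* peak also overlapped each of the 11 *SUMO-KallR* peaks. The 35 centromeric WT peaks, central ones included, had a median score of 569 (quartiles 461 and 1047), and WT arm peaks on chromosome II reached 2778. WT scores were not compared peak by peak, so the excess over the untagged strain is not shown to be particular to *SUMO-KallR*. On chromosome I the *SUMO-KallR* peaks on either side of the central one stood at 8.97 and 10.3 times, and the highest untagged peaks under them at 3.71 and 3.69 times. On chromosome II the peaks on either side of the highest one stood at 41.6 times on the left, with the summit in the left *imr*, and at 36.9 and 33.2 times on the right. The peak at 36.9 times had its summit in the right *imr*, and the one at 33.2 times had it at 1645841, in the arm just outside the border at 1643033. Untagged peaks under them reached 3.72, 1.31 and 7.94 times. On chromosome III the left *otr* peak stood at 41.9 times, with its summit 2 bp from that of the highest untagged centromeric peak, which stood at 13.9 times. The 5 *SUMO-KallR* peaks to the right of the core stood at 10.5 to 20.0 times, and the highest untagged peak under each at 2.84 to 8.61 times. Only 1 of the 14 *SUMO-KallR* centromeric summits lay in a 150-base sequence that occurs once in the genome, so in the repeats these scores belong to a family of copies rather than to 1 place. Of the 150-base sequences in *cnt*, 29.3% occur once on chromosome I, 100% on II and 43.5% on III.

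Peaks ran out of the centromeres into the arms in both lists, except on the left of centromere III. There the *SUMO-KallR* peak passed the border by 453 bp and no untagged peak crossed it. On the left of centromere I the *SUMO-KallR* peak reached 5521 bp beyond the border and the untagged peak 5354 bp. On the right of centromere I the *SUMO-KallR* peak reached 57019 bp beyond the border and the untagged peak 56993 bp. On the right of centromere II they reached 35841 bp in *SUMO-KallR*, against 35494 bp in the untagged strain, with the *SUMO-KallR* summit in the arm and the untagged summit in the *otr*, at 1639738. On the right of centromeres I and II the far edges thus nearly coincided. They did not on the right of centromere III, where the *SUMO-KallR* peak reached 61926 bp out and the untagged peak across the border 19207 bp. The *SUMO-KallR* peak there lay over 7 untagged peaks, of which its mutual partner, from 1157541 to 1195865, was wholly in the arm. On the left of centromere II the *SUMO-KallR* peak reached 14603 bp out and the untagged peak next to the border 1353 bp, with further untagged peaks beyond it. Since a peak has 1 score, these lists do not show how height falls off within such a peak.

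On the arms the ratio was highest close to the centromeres. Of the 6 arm pairs with a summit within 50 kb of a centromere, all 6 had the higher multiple in *SUMO-KallR*, with a median log2 ratio of 0.94 and medians of 1.83 times in *SUMO-KallR*, against 1.20 times in the untagged strain. In the 51 pairs from 50 to 200 kb the median log2 ratio was 0.21 and 70.6% were higher in *SUMO-KallR*. From 200 to 500 kb it was 0.13 in 117 pairs, from 500 kb to 1 Mb 0.09 in 173, and further out 0.07 in 342. All of these medians but the first lie within the quartiles of all arm pairs. Of the 16 arm *SUMO-KallR* peaks over 2 times the arm median, 7 lay within 200 kb of a centromere, where 90 of the 1433 arm peaks lie. In the untagged list it was 2 of 13, among 74 of 812. Both of these 2 untagged peaks were the partners of 2 of the 7. One was the *gsf2* peak. The other ran from 3984393 to 3991386 on chromosome I with a score of 567 in *SUMO-KallR*, and from 3984394 to 3991348 with a score of 554 in the untagged strain, with summits 13 bp apart.

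**Figure D5:**
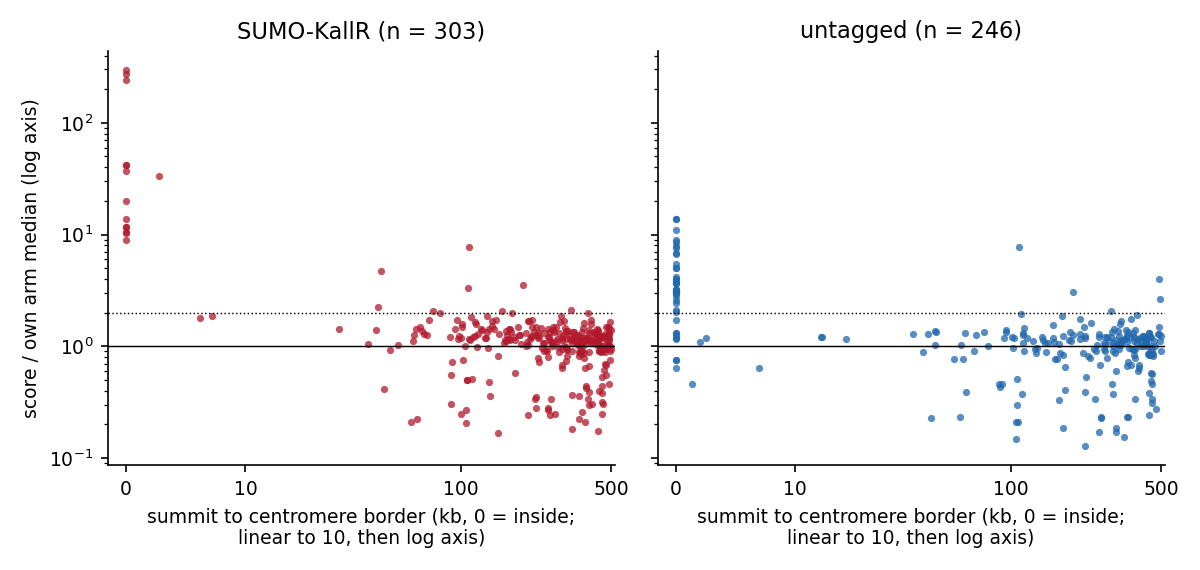
Score divided by the arm median of its own list (log axis) against the distance from the summit to the border of the centromere in kb (0 for summits inside, linear up to 10 and then a log axis), for 303 *SUMO-KallR* peaks (left panel) and 246 untagged peaks (right panel) within 500 kb, end peaks left out. The solid line marks the arm median and the dotted line 2 times it; summits inside reach 299 times in *SUMO-KallR*, against 13.9 times in the untagged strain, and in the bands from 50 to 500 kb the medians are 1.08 to 1.26 times in *SUMO-KallR* and 0.959 to 1.07 times in the untagged strain.

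Arm pairs over 2 times apart are described next, not all of them at length, a choice made after their values were seen. Those with an excess in *SUMO-KallR* near a centromere lay mostly on chromosome I. The peak from 3700540 to 3745628 had a score of 761 in *SUMO-KallR*, with its summit 103 bp from a tRNA-Val gene, and its untagged partner a score of 235, which is a log2 ratio of multiples of 1.87, with summits 1310 bp apart. The small peak next to it, from 3745976 to 3747684, had a score of 300 in *SUMO-KallR*, against 117 in the untagged strain. On the other side, the peak from 3891528 to 3903950 scored 536 in *SUMO-KallR*, with its summit in an untranslated region or intron of *dlc2*, the dynein light chain gene, and its untagged partner, with a summit 6206 bp away, 193. On chromosome II, 41.0 kb from the centromere, the peak with its summit in *pat1*, the kinase that holds back meiosis, scored 361 in *SUMO-KallR*, against 161 in the untagged strain.

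Of the other such pairs, 4 had summits at most 50 bp apart. The peak near SPNCRNA.6754, whose sequence is shown above, scored 151 in *SUMO-KallR*, against 45 in the untagged strain, with summits 7 bp apart and the largest ratio on the arms (log2 ratio 1.92). In *dad5*, which encodes a subunit of the kinetochore DASH complex, the score was 85 in *SUMO-KallR*, against 29 in the untagged strain, with summits 3 bp apart. The peak in *rpl302*, a gene of ribosomal protein L3, scored 327 in *SUMO-KallR*, against 148 in the untagged strain, also 3 bp apart. The one in *ilv5*, a gene of branched-chain amino acid synthesis, scored 326 in *SUMO-KallR*, against 169 in the untagged strain.

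At the mating-type region *SUMO-KallR* peaks stood below untagged peaks. The 5 *SUMO-KallR* pieces scored 109 to 234, at most 1.46 times the arm median, under an untagged peak on chromosome II from 2115513 to 2133509 that scored 727, or 4.02 times. The untagged summit, at 2131394, lay 710 bp from SPNCRNA.5506, which is annotated as a non-coding RNA of the mating-type region. Beside it, over SPNCRNA.390 of the same region, the scores were 160 in *SUMO-KallR*, against 483 in the untagged strain. The strain list gives mating type h+ for the untagged strain and leaves it undetermined for *SUMO-KallR*, and the part of mating type in these scores was not tested.

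Another such place was *ubi4*, the polyubiquitin gene, on the same chromosome. The 7 *SUMO-KallR* peaks there scored 73 to 231, and the one with its summit at 1044948 scored 185. They overlapped an untagged peak from 1044516 to 1078974 with its summit in *ubi4*, at 1045065, and a score of 595. The mutual partner of this untagged peak was a piece over *fol1* whose summit lay 21164 bp away, so that splitting here set unlike summits against each other. Near SPBP35G2.17 on chromosome II the scores were 21 in *SUMO-KallR*, against 80 in the untagged strain (log2 ratio −1.75), with summits 199 bp apart. The other arm pairs over 2 times lower in *SUMO-KallR* lay in or near *pfl7*, *ssp2*, SPNCRNA.1115, SPNCRNA.1124 and SPNCRNA.3868, with log2 ratios of −1.27 to −1.003.

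At the ends of chromosome III, which carry fragments of rDNA, scores agreed closely in rank. All 38 end pairs there fell on the same side of the median score, with a rho of 0.95. The *SUMO-KallR* multiple was over 2 times the untagged one in 9 of the 38, and in none the reverse. In the outer 30 kb on the left, peaks reached 22.9 times the arm median in *SUMO-KallR*, against 14.5 times in the untagged strain. On the right they reached 43.3 times in *SUMO-KallR*, against 9.49 times in the untagged strain. The peak at 43.3 times lay from 2447011 to 2447642, 202 bp from the 28S rRNA gene SPRRNA.49, with a score of 6934, and its untagged partner, with a summit 1223 bp away, scored 585. The authors filtered out rDNA, and how far that filter reached at these fragments is not stated in the methods. Of all 168 *SUMO-KallR* end summits, 36.9% lay in sequence that occurs more than once.

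At the right end of chromosome II *SUMO-KallR* was the lower list. The *SUMO-KallR* peak inside the last untagged peak scored 147 and that untagged peak 681, with summits 20 bp apart. Next to it the highest of 3 *SUMO-KallR* pieces scored 369, with its summit at 4535710, and the untagged peak around them 1039, with its summit at 4535702. The outer 30 kb of the other ends of I and II reached 2.28 to 3.6 times the arm median in *SUMO-KallR* and 1.87 to 2.97 times in the untagged strain.

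Genes that the strains' alleles touch were read in both lists. *ura4* lay under no peak in either list. The gap around its 1037 bp measured 2936 bp in *SUMO-KallR*, against 2166 bp in the untagged strain, and both strains carry *ura4-D18*, a deletion of this gene. At *cnp1* itself the *SUMO-KallR* peaks left a gap of 836 bp, from 554 bp before the annotated start of the gene to 282 bp inside it, and a second of 186 bp, from 3540148 to 3540333, over the 3′ end of the gene at 3540163. The piece between these gaps was 1362 bp wide with a score of 107. In the untagged strain the whole gene lay under a peak of 22.8 kb that scored 208. Whether the tag or its marker takes part in these gaps was not tested. *pmt3*, *ade6* and *leu1* lay fully under peaks in both lists. At *pmt3* the scores were 244 in *SUMO-KallR*, against 265 in the untagged strain.

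The genes of the kinetochore and of heterochromatin described next, from a list chosen by hand, lay under peaks of 0.840 to 1.61 times the arm median. Genes named above fell outside this range. *dad5* stood at 0.531 times in *SUMO-KallR*, against 0.160 times in the untagged strain, and *cnp1* at 0.669 times in *SUMO-KallR*. *ndc80*, a subunit of the outer kinetochore, lay under peaks of 1.61 times the arm median in *SUMO-KallR*, against 1.31 times in the untagged strain. *mis6*, *sim4* and *fta2* of the inner kinetochore stood at 1.24, 1.44 and 1.27 times in *SUMO-KallR*, and at 0.840, 1.31 and 1.01 times in the untagged strain. *cnp3*, which encodes the CENP-C of fission yeast, stood at 1.11 times in *SUMO-KallR*, against 0.906 times in the untagged strain. For *clr4*, the histone H3 lysine methyltransferase of heterochromatin, these were 1.08 times in *SUMO-KallR*, against 1.02 times in the untagged strain. *swi6*, the HP1 gene named above, went the other way, at 0.913 times in *SUMO-KallR*, against 1.18 times in the untagged strain. Arm scores are closely packed, with an upper quartile of 190 in *SUMO-KallR*, against 208 in the untagged strain. Above it in *SUMO-KallR* were the peaks over *ndc80* (257), *sim4* (231), *fta2* (203) and *mis6* (198). In the untagged strain those over *ndc80* and *sim4* (238 each) and *swi6* (213) were above it. Most of these peaks run over several genes each, so their scores belong to the whole peak. A list of 23 annotated genes, chosen by hand from the strains' alleles, *gsf2* and kinetochore, heterochromatin, histone, DNA replication and repair and housekeeping genes, had 15 members wholly under *SUMO-KallR* peaks and 16 wholly under untagged peaks. Of all 5113 protein-coding genes on the 3 chromosomes, 82.3% lay wholly under *SUMO-KallR* peaks, against 91.8% under untagged peaks.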

How the data were processed

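The authors cut adapters with Cutadapt, aligned reads to fission yeast ASM294v2 and budding yeast SacCer3 by Bowtie2, and filtered duplicates, rDNA and mitochondrial DNA with Samtools. MACS3 scaled ChIP and control, with spike-in calibration, and called peaks library by library with bdgpeakcall. The sources used here give no versions or cutoff, and no details of a later, stricter background removal named in the series text. The deposited score of a peak, taken per the file headers from a p-value track, is the only height in the lists, and read depth is unknown from them. The study's reporting summary gives similar counts of uniquely mapped reads for the *SUMO-KallR* and untagged ChIP libraries. It also lists a MACS3 callpeak command beside bdgpeakcall. ASM294v3 was used for sequence and annotation, as all peaks end within its chromosomes. Centromere parts were located with BLAST+ 2.17.0 from inverted and *dg*/*dh* repeats. Coordinates count from 1 and overlaps from 1 bp. Members and gene lists were chosen with earlier results of these data known. Named loci are the 10 highest peaks of each list outside centromeres, the 10 largest rises and falls in percentile, coinciding edges and summits, the 5 most split peaks and all centromeric peaks. Arm pairs over 2 times apart in the multiple of the arm median, and the sequences shown, were added after seeing the data. The measures were checked on simulated lists. Computation used SciPy 1.17.1, NumPy 2.4.6 and pandas 2.3.3 in Python 3.11.15, with matplotlib 3.10.9 for plots. Inputs were not analysed here.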

Additional observations from a re-analysis of the deposited data

How the results depend on the processing

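No paired analysis was possible because each strain gave 1 ChIP library. The share of shared edges was 13.3% at a tolerance of 50 bp and 32.6% at 200 bp. It lay within its interval on arms only, with peaks closer than 500 bp merged, with peaks of at least 300 bp, and above the 25th percentile of scores. Split untagged peaks numbered 149 of 340 after merging and 340 to 417 under the other 4 settings. The median summit distance was 3866.5 bp for summits inside the untagged peak, 3091 bp on arms, 3919 bp above the score floor and 1249 bp from untagged to *SUMO-KallR* summits. Pairs on the same side of the median were 63.5% of all overlapping pairs, 89.5% of those with summits within 500 bp, 69.1% on arms and 67.1% with the rank of width removed. The percentile shift at centromeres was 2.56 to 8.85 points under its 3 alternatives, within its interval. One library per strain, scores tied to depth, and gaps under 151 bp that end no peak limit what these lists can show.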
